A study of Mus musculus with 18 samples.

Results

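The transcripts described here belong to 33 adipocyte and lipid storage genes, followed across the uterus and the ovary of mice with an altered interferon gamma gene. They were picked by name out of the 57010 gene IDs counted, and they were selected on measured values, since their higher levels in ARE-/- animals were already known from these libraries. Total RNA of C57B6/J mice aged 20 to 25 weeks was sequenced in 18 libraries, 3 for each genotype in each tissue. The genotypes were ARE-/- (homozygous), ARE+/- (heterozygous) and WT, for the uterus and for the ovary. The labels do not define ARE; as background, it is the AU-rich element of Ifng, whose germ-line loss prolongs the life of the transcript. All 3 genotypes share the strain, and the series title names implantation failure and defective luteinization. Stage of the estrous cycle and the handling of the fat around the organs were not given in the sources used here.

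An adipocyte stores triglyceride in a large droplet whose surface is coated by perilipins and enlarged by CIDE proteins. It takes up fatty acids freed by lipoprotein lipase, makes others from glucose, releases them again through lipases, and secretes adiponectin, leptin, resistin and adipsin. The nuclear receptor Pparg and its partner Cebpa switch this program on. In female mice such cells lie in the fat that surrounds the uterine horns and the ovaries, while steroid-producing cells of the ovary keep lipid droplets of their own. Levels below are CPM, counts relative to the scaled depth of each library, given in the order of the replicate numbers, which are 1, 2 and 3 except for ARE-/- ovaries (2, 3 and 6) and ARE+/- ovaries (1, 2 and 4). Log2 fold changes are given with their standard error, and a gene is called where edgeR's quasi-likelihood test gives it an adjusted p under 0.05.

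Libraries held 33185496 to 49720354 counts. Ifng was higher in both ARE genotypes than in WT, with 1.76 to 3.33 CPM in ARE-/- uteri, 0.967 to 2.02 CPM in ARE+/- uteri and 0 to 0.135 CPM in WT uteri, and with 0.911 to 1.2 CPM in ARE-/- ovaries, 0.205 to 0.685 CPM in ARE+/- ovaries and 0 to 0.0972 CPM in WT ovaries. Several libraries stood apart. Uterus ARE-/- replicate 1 was the highest of its group for 26 of the 33 genes, and ovary ARE-/- replicate 6, marked as a backup sample in its title, was the lowest of its group for 27. Ovary ARE+/- replicate 1 was the highest of its group for 29. Uterus WT replicate 1, also marked as a backup, and WT replicate 3 resembled each other (chi-square per degree of freedom 34.5) more than either resembled WT replicate 2 (176 and 160.4). The uterine and ovarian markers separated the tissues in WT animals, with 10 of 10 uterine markers lower and 9 of 10 granulosa and 10 of 10 steroidogenic markers higher in the ovary. The adipocyte markers Plin1, Adipoq, Cidec, Fabp4, Lep and Retn were detected in all 18 libraries.

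**Figure D1:**
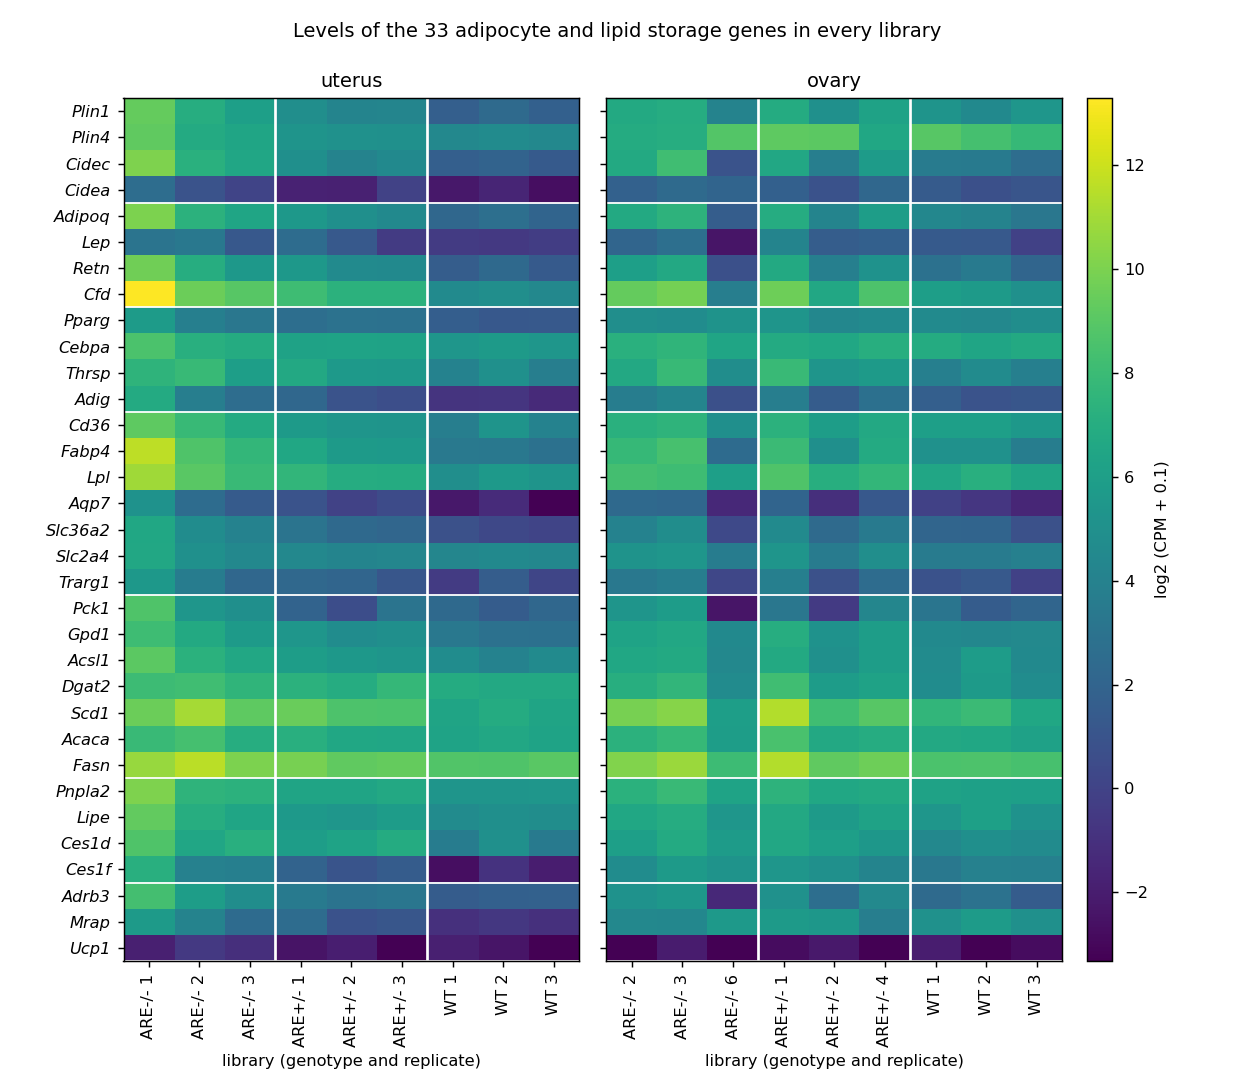
Levels of the 33 genes as log2 (CPM + 0.1) in every library, with genes grouped by role down the page and libraries grouped by genotype across it, uterus on the left and ovary on the right. The column of uterus ARE-/- replicate 1 is the brightest of its tissue for 26 genes, and the column of ovary ARE-/- replicate 6 is dark for most genes but bright for Plin4.

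In the ARE-/- uterus 30 of the 32 tested genes were called higher than in WT and 0 lower, with a median log2 fold change of 4.02 against 0.04 over all genes. These values chose the genes and are given as a description. Over all genes 3.36% were called higher. In 31 of the 32 every ARE-/- library lay above every WT library, which held for 12.4% of all genes. The 30 and the 31 both include Cidea, Aqp7 and Ces1f, which passed the filter on low counts through higher groups. The exceptions to the calls were Slc2a4, the insulin-regulated glucose transporter GLUT4, at 1.29 ± 0.47, and Trarg1, a protein of the vesicles that carry it, at 3.85 ± 0.91. Just inside the threshold stood Lep at 3.40 ± 0.79 and Acaca at 1.46 ± 0.32. The count was 3 without WT replicate 1 (0.784% of all genes) and 2 without WT replicate 3 (0.751%). It was 26 of 33, with a median of 3.23, without ARE-/- replicate 1 (3.86% of all genes). In whole-tissue RNA, more cells of a type and more RNA per cell cannot be told apart.

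The 4 genes of the droplet coat had a median difference of 5.34, against 6.52 for the 4 adipokines. Plin1, the perilipin that guards the adipocyte droplet, had 659, 132 and 67.3 CPM in ARE-/- uteri, 29.5, 17.8 and 19.2 CPM in ARE+/- uteri and 3.23, 5.14 and 3.37 CPM in WT uteri. The groups did not overlap, and ARE-/- replicate 1 was 6.61 times the mean of the other 2 ARE-/- uteri (6.22 ± 0.88 against WT, and 4.67 ± 0.37 without ARE-/- replicate 1). Cidec, which fuses droplets into larger ones, had 1085, 147 and 92.5 CPM in ARE-/- uteri, 30.3, 16.9 and 23.8 CPM in ARE+/- uteri and 3.23, 3.86 and 2.47 CPM in WT uteri, again in 3 separate tiers (7.14 ± 1.02, and 5.22 ± 0.33 without that library). Plin4, a perilipin of small new droplets, had 598, 113 and 85.1 CPM in ARE-/- uteri, 39.4, 33.9 and 31.8 CPM in ARE+/- uteri and 21.3, 26.2 and 21.6 CPM in WT uteri, and its ARE+/- libraries lay only just above WT. Cidea, the relative of Cidec typical of brown fat, was low, at 5.99, 1.79 and 0.944 CPM in ARE-/- uteri, 0.199, 0.188 and 0.866 CPM in ARE+/- uteri and 0.113, 0.224 and 0.0503 CPM in WT uteri.

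Among the secreted products, Cfd, which encodes the complement protease adipsin, was the most abundant per transcript length, with 4963 ± 6719 TPM in ARE-/- uteri, 360.0 ± 125 TPM in ARE+/- uteri and 44.6 ± 6.22 TPM in WT uteri (mean ± SD, n = 3 each). In CPM it stood at 10090, 769.7 and 505 CPM in ARE-/- uteri, 277, 164 and 160.2 CPM in ARE+/- uteri and 24.1, 28.8 and 22.0 CPM in WT uteri. The 10090 CPM of ARE-/- replicate 1 were 15.8 times the mean of the other 2 ARE-/- uteri. Adipoq, the adiponectin gene, had 1032, 164 and 86.1 CPM in ARE-/- uteri, 46.1, 31.4 and 23.7 CPM in ARE+/- uteri and 4.54, 6.68 and 4.03 CPM in WT uteri. Retn, the resistin gene, had 835, 132 and 47.0 CPM in ARE-/- uteri, 46.5, 24.6 and 23.5 CPM in ARE+/- uteri and 2.87, 5.05 and 2.54 CPM in WT uteri. Both fell into the same 3 tiers as Plin1. Lep, the leptin gene, did not: it had 8.10, 9.74 and 2.27 CPM in ARE-/- uteri, 5.78, 2.36 and 0.635 CPM in ARE+/- uteri and 0.624, 0.583 and 0.704 CPM in WT uteri, so that ARE-/- replicate 2 was highest and 1 ARE+/- library lay among the WT ones.

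Uptake genes had the same order of groups, with 1 exception. Fabp4, the fatty acid carrier of adipocytes, had 3136, 429 and 205 CPM in ARE-/- uteri, 96.3, 52.6 and 51.6 CPM in ARE+/- uteri and 10.3, 9.98 and 7.25 CPM in WT uteri, a difference of 7.13 ± 1.08 from WT and of 5.11 ± 0.42 without ARE-/- replicate 1. Lpl, the lipase that frees fatty acids from lipoproteins, had 1916, 517 and 247 CPM in ARE-/- uteri, 197, 127 and 117 CPM in ARE+/- uteri and 30.0, 51.5 and 38.2 CPM in WT uteri. Cd36, a fatty acid transporter, had 584, 232 and 112 CPM in ARE-/- uteri, 54.1, 41.1 and 38.8 CPM in ARE+/- uteri and 13.4, 38.2 and 16.7 CPM in WT uteri. For Fabp4 and Lpl the 3 genotypes were separate, and for Cd36 ARE+/- replicate 3 exceeded WT replicate 2 by less than 1 CPM. Aqp7, the glycerol channel, Slc36a2, an amino acid transporter of adipocytes, and Adig, a small protein of adipocytes, gave 6.64 ± 1.27, 5.21 ± 0.70 and 6.77 ± 1.22 against WT. The WT uteri held only 0 to 0.314 CPM of Aqp7, so its fold rests on few reads. Slc2a4 behaved unlike its neighbours, with 98.4, 32.1 and 21.4 CPM in ARE-/- uteri, 21.6, 17.7 and 19.9 CPM in ARE+/- uteri and 19.8, 23.2 and 20.1 CPM in WT uteri. Its ARE+/- and WT libraries overlapped, and so did ARE-/- replicate 3 with WT.

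The enzymes that make fat had another order of libraries. Scd1, which desaturates fatty acids, had 765, 2105 and 581 CPM in ARE-/- uteri, 733, 395 and 378 CPM in ARE+/- uteri and 82.1, 119.8 and 84.1 CPM in WT uteri. Fasn, fatty acid synthase, had 1702, 3031 and 1028 CPM in ARE-/- uteri, 963, 608 and 672 CPM in ARE+/- uteri and 438, 419 and 523 CPM in WT uteri. For both, ARE-/- replicate 2 was the highest and replicate 1 came next, and for Scd1 an ARE+/- uterus lay inside the ARE-/- range. Thrsp, a regulator of lipogenesis, Dgat2, which completes triglycerides, and Acaca, acetyl-CoA carboxylase, were also highest in ARE-/- replicate 2, along with Lep and Ucp1, while the other 26 genes were highest in ARE-/- replicate 1. Differences from WT were 3.60 ± 0.51 for Scd1 and 2.07 ± 0.37 for Fasn, and 1.21 ± 0.24 for Dgat2. Gpd1, which supplies the glycerol backbone, had 4.20 ± 0.56 and Acsl1, which activates fatty acids, 3.61 ± 0.60. Pck1, an enzyme on the path from smaller precursors to the glycerol backbone, had 426, 42.2 and 30.6 CPM in ARE-/- uteri, 3.74, 1.42 and 8.32 CPM in ARE+/- uteri and 4.99, 2.74 and 4.48 CPM in WT uteri. Its ARE-/- libraries lay above all others, and its ARE+/- libraries spanned the WT range.

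Genes of fat release and of its hormonal control completed the pattern. Lipe, hormone-sensitive lipase, had 622, 133 and 85.5 CPM in ARE-/- uteri, 50.8, 43.0 and 57.3 CPM in ARE+/- uteri and 26.2, 30.6 and 28.3 CPM in WT uteri. Pnpla2, the lipase ATGL that starts triglyceride breakdown, differed from WT by 3.55 ± 0.69. Ces1f, a carboxylesterase, had 139, 15.8 and 14.3 CPM in ARE-/- uteri, 3.82, 1.93 and 2.77 CPM in ARE+/- uteri and 0.0567, 0.449 and 0.151 CPM in WT uteri, the largest fold of the group at 7.97 ± 1.20. The WT libraries held 2 to 20 counts of it, so that its fold rests on few reads. Its neighbour Ces1d had 428, 92.2 and 143 CPM in ARE-/- uteri, 61.6, 78.1 and 119.7 CPM in ARE+/- uteri and 12.7, 31.5 and 11.1 CPM in WT uteri, with ARE-/- replicate 2 inside the ARE+/- range. Ces1 genes are near copies and multi-mapped reads were counted for each, so the split between Ces1d and Ces1f is uncertain. Adrb3, the adrenergic receptor of adipocytes, differed from WT by 5.46 ± 0.86, and Mrap, an accessory protein of melanocortin receptors, by 5.82 ± 0.90. The transcription factors Pparg and Cebpa differed from WT by 3.39 ± 0.62 and 2.25 ± 0.40. Pparg had 56.4, 14.1 and 9.44 CPM in ARE-/- uteri, 6.25, 7.47 and 7.25 CPM in ARE+/- uteri and 3.06, 2.33 and 2.37 CPM in WT uteri, and Cebpa had 381, 141 and 121 CPM in ARE-/- uteri, 77.3, 77.9 and 77.6 CPM in ARE+/- uteri and 41.8, 53.4 and 41.8 CPM in WT uteri. Ucp1, the uncoupling protein of brown fat, had 0 to 23 counts in any uterine library, at most 0.590 CPM, and did not pass the filter on low counts.

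**Figure D2:**
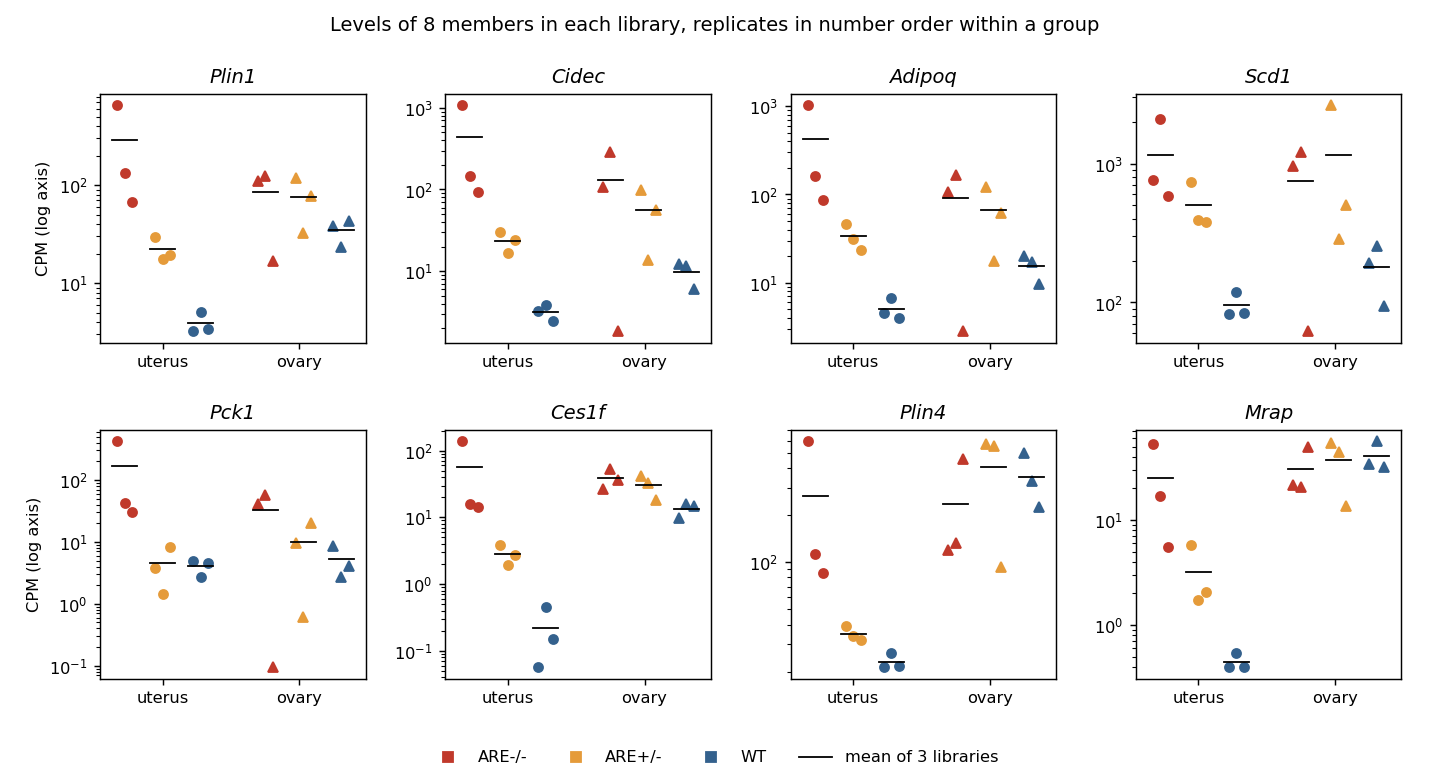
CPM on a log axis for 8 genes, with 1 point per library, uterus as circles and ovary as triangles, and black lines for the mean of 3 libraries. Plin1, Cidec and Adipoq fall into 3 tiers in the uterus, while in the ovary ARE-/- replicate 6 lies below the WT points for these genes and above the other ARE-/- points for Plin4 and Mrap.

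Promoter windows of RefSeq (build GRCm38.p6, 250 bases before to 50 after a start site) were found for 20 of the 33 genes, in 26 windows. The letters TTGCNNAA, a core that C/EBP factors bind, occurred on either strand in 4 of the 26 windows (15.4%; Plin1, Cidec, Lep and Pparg) and in 10.8% of all 32851 windows. AGGTCA, a half-site of nuclear receptors, occurred in 7 of the 26 windows (26.9%), of 5 genes, and in 16.3% of all windows, and its direct repeat with 1 base between, the form that Pparg binds, in 0 of the 26 and in 0.0396% of all windows. CCAAT occurred in 9 of the 26 windows (34.6%, against 37.4% of all windows), TATAAA in 2 (7.69% against 13.6%), the E-box CACGTG in 1 (3.85% against 7.15%) and TTCNNNGAA, a site of interferon-activated STAT proteins, in 2, those of Adig and Lipe (7.69% against 8.3%). The windows of Plin1, Cidec and Lep are shown because they hold the C/EBP core, and that of Plin4 as a gene that ran against the others in the ovary. Cidec has a second window, at chr6:113435711-113436010, which holds no core and is not printed. Capitals mark TTGCNNAA on either strand, and each window runs 5′ to 3′ along its gene, here Plin1 at chr7:79732727-79733026 on the minus strand, Cidec at chr6:113434715-113435014 on the minus strand, Lep at chr6:29059971-29060270 on the plus strand and Plin4 at chr17:56109733-56110032 on the minus strand.
Plin1: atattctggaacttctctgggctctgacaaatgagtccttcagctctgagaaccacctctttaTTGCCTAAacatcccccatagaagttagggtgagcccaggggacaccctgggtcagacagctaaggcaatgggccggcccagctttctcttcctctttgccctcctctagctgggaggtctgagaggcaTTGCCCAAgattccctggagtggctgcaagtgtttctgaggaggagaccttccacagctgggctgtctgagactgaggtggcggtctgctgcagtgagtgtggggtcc
Cidec: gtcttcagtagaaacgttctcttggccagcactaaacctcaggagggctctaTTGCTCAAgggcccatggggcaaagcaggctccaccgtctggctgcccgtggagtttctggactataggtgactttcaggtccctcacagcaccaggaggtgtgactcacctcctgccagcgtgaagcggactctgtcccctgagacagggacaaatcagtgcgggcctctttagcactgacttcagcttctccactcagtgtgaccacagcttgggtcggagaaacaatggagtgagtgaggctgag
Lep: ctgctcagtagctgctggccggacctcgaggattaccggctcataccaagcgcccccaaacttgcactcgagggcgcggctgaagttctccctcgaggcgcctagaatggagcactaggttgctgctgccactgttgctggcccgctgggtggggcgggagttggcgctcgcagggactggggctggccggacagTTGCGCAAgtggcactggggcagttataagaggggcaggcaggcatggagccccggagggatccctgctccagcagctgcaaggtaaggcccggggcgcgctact
Plin4: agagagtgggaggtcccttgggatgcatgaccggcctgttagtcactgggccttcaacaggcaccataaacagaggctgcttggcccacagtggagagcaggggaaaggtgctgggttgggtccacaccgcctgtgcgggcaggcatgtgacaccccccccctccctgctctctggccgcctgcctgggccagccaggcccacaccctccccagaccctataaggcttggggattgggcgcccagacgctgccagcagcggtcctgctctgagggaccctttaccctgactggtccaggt

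The Lep window carries 1 copy of the core, 48 to 55 bases before the start site, which reads the same on both strands. The Plin1 window carries 2 copies and the Cidec window 1. Plin4 shows none in these 300 bases. A match is a description of the letters and not a site of binding.

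In the ARE+/- uterus 0 of 32 genes were called by edgeR, against 1.08% of all genes called higher. At an unadjusted p under 0.05, 19 of 32 (59.4%) were higher and 0 lower, against 14.1% of all genes in either direction. DESeq2 called 13 higher, against 4.41% of all genes. The median log2 fold change was 1.79, and 26 of the 32 had every ARE+/- library above every WT library, against 15.5% of all genes. The 26 include Aqp7 and Ces1f, which passed the filter on low counts through higher groups. This comparison shares its WT libraries with the one that chose the genes. Scd1 came closest to the threshold at 2.40 ± 0.48 (adjusted p = 0.053), followed by Gpd1 at 2.06 ± 0.52 (adjusted p = 0.10). The largest fold was that of Ces1f, 3.64 ± 1.07 (adjusted p = 0.16), and Cidec, Fabp4, Cfd, Adipoq and Plin1 had 2.90 ± 0.85, 2.87 ± 0.89, 3.01 ± 1.01, 2.74 ± 0.83 and 2.51 ± 0.75 (adjusted p from 0.16 to 0.22). At the low end were Pck1 at 0.15 ± 0.98 (adjusted p = 0.97) and Slc2a4 at -0.09 ± 0.47 (adjusted p = 0.96). Without ARE-/- replicate 1, which enters this test through the shared estimate of spread, 18 genes were called (2.43% of all genes higher), and with the ARE-/- libraries left out altogether 19 (3.18%). Without ARE-/- replicate 2 the count was 1 and without ARE-/- replicate 3 it was 2. Over all genes 244 of 25248 and 399 of 25522 were then called higher.

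Set against ARE+/-, the ARE-/- uterus gave 0 calls among the 32 genes and among all genes (0%) by edgeR, and 31 genes at an unadjusted p under 0.05, all higher in ARE-/- (4.87% of all genes in either direction). DESeq2 called 19 (0.721% of all genes higher). The median was 2.72, with Pck1 the highest at 5.23 ± 1.14 and Dgat2 the lowest at 0.61 ± 0.23. Libraries of the 2 groups overlapped for 9 genes, Scd1, Acaca, Dgat2, Thrsp, Lep, Slc2a4, Trarg1, Ces1d and Mrap. For this comparison the share of all genes that overlapped was not computed, so the count is only a description.

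**Figure D3:**
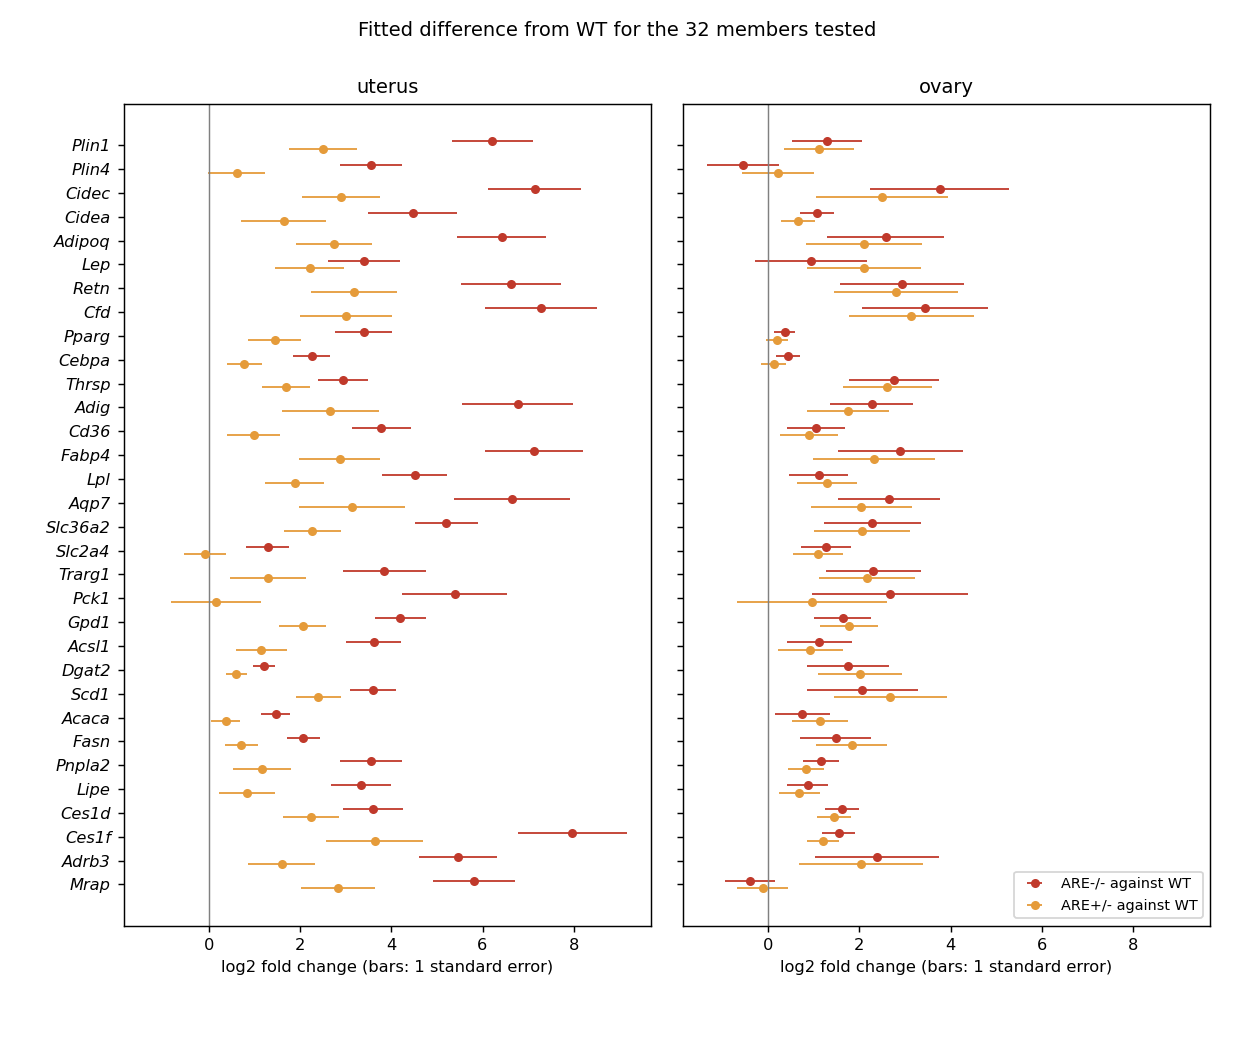
Log2 fold changes against WT of the 32 tested genes, with bars of 1 standard error, ARE-/- in red and ARE+/- in orange, uterus on the left and ovary on the right. In the uterus every ARE-/- point lies right of its ARE+/- point, while in the ovary the order of the 2 points varies by gene, with Pck1 at 2.68 for ARE-/- and 0.96 for ARE+/- and Lep at 0.93 for ARE-/- and 2.10 for ARE+/-.

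In the ovary the genotype groups overlapped far more. Of 32 genes 2, Ces1d and Ces1f, were called higher in ARE-/- ovaries and 0 lower, with a median of 1.58. Over all genes 6.31% were called higher, so the share among the 32 was near that of all genes. Every ARE-/- library lay above every WT library for 5 genes (Cidea, Thrsp, Pnpla2, Ces1d and Ces1f), a share near the 15.3% of all genes. This contrast too was known when the genes were chosen. Without ARE-/- replicate 6 the count was 8 and the median 1.86, with 8.03% of all genes called higher. Leaving out any 1 of the WT libraries gave 0, as did leaving out the ARE-/- ovary numbered 3 or the ARE+/- ovary numbered 2. The ARE-/- ovary numbered 2, left out, gave 1. Over all genes 518 of 25276, 886 of 25277 and 714 of 25306 were called higher without WT replicates 1, 2 and 3. Without the ARE ovaries just named, in that order, 948 of 25230, 1282 of 25235 and 835 of 25301 were called higher.

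Markers of other cell types differed between ovaries as well, with none of the genes of these 4 lists at 0 in every ovary. Lymph node genes were called higher in ARE-/- ovaries for 4 of 9 tested (median 2.60; 6.31% of all genes were called higher), with sums of 115 to 213 CPM in ARE-/- ovaries, 123 to 158 CPM in ARE+/- ovaries and 84.9 to 113 CPM in WT ovaries. Macrophage genes were called for 4 of 9 (median 0.92), with 598 to 1164 CPM in ARE-/- ovaries, 667 to 705 CPM in ARE+/- ovaries and 455 to 596 CPM in WT ovaries. Mesothelial genes were called for 4 of 10 (median 0.48), with 539.7 to 714 CPM in ARE-/- ovaries, 523 to 619.8 CPM in ARE+/- ovaries and 397 to 449 CPM in WT ovaries. Adipose stroma genes were called for 2 of 10 (median 0.68), with 508 to 798 CPM in ARE-/- ovaries, 521 to 609 CPM in ARE+/- ovaries and 453 to 503 CPM in WT ovaries. The part of these cell types in the ovarian levels was not tested.

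Plin1 had 111, 125 and 17.0 CPM in ARE-/- ovaries, 117, 32.4 and 77.2 CPM in ARE+/- ovaries and 38.4, 23.4 and 43.1 CPM in WT ovaries, so that ARE-/- replicate 6 was the lowest of the 9 and both other ARE-/- ovaries were above the WT range (1.29 ± 0.77 against WT, and 1.76 ± 0.53 without replicate 6). Cidec had 109, 287 and 1.84 CPM in ARE-/- ovaries, 98.5, 13.6 and 55.3 CPM in ARE+/- ovaries and 12.1, 11.4 and 6.04 CPM in WT ovaries, with the highest and the lowest ovary both in the ARE-/- group (3.77 ± 1.52, and 4.33 ± 0.91 without replicate 6). Adipoq had 107, 167 and 2.83 CPM in ARE-/- ovaries, 122, 17.8 and 60.9 CPM in ARE+/- ovaries and 20.1, 17.2 and 9.69 CPM in WT ovaries. Cfd had 648, 905 and 13.6 CPM in ARE-/- ovaries, 784, 99.9 and 405 CPM in ARE+/- ovaries and 62.6, 52.0 and 32.4 CPM in WT ovaries. In both, ARE-/- replicates 2 and 3 and ARE+/- replicates 1 and 4 were above all WT ovaries, and ARE-/- replicate 6 was below them. Fabp4 had 227, 354 and 5.5 CPM in ARE-/- ovaries, 250.5, 30.4 and 115 CPM in ARE+/- ovaries and 33.8, 33 and 13.1 CPM in WT ovaries, and Retn had 66.3, 103 and 1.56 CPM in ARE-/- ovaries, 108, 14.3 and 35.7 CPM in ARE+/- ovaries and 7.10, 11.4 and 4.24 CPM in WT ovaries. In these too ARE-/- replicate 6 was the lowest. Lep had 4.20, 6.52 and 0.0943 CPM in ARE-/- ovaries, 18.2, 2.95 and 3.38 CPM in ARE+/- ovaries and 2.53, 2.40 and 0.815 CPM in WT ovaries, with ARE+/- replicate 1 the highest ovary and ARE-/- replicate 6, at 4 counts, the lowest.

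Among uptake genes the median ARE-/- difference was 2.28, and among genes of fat release 1.35. Lpl had 314, 285 and 65.0 CPM in ARE-/- ovaries, 421, 135 and 206 CPM in ARE+/- ovaries and 89.6, 139.8 and 84.2 CPM in WT ovaries, and Cd36 had 152, 178 and 31.5 CPM in ARE-/- ovaries, 165, 61.1 and 105 CPM in ARE+/- ovaries and 66.4, 65.3 and 46.4 CPM in WT ovaries. Lipe had 96.4, 125 and 41.7 CPM in ARE-/- ovaries, 106, 53.4 and 74.6 CPM in ARE+/- ovaries and 43.0, 68.0 and 35.6 CPM in WT ovaries. In all 3, ARE-/- replicates 2 and 3 were above the WT range. Ces1d had 66.2, 115 and 55.3 CPM in ARE-/- ovaries, 101, 65.9 and 44.0 CPM in ARE+/- ovaries and 21.2, 31.0 and 26.0 CPM in WT ovaries (1.61 ± 0.37), and Ces1f had 26.9, 53.1 and 36.7 CPM in ARE-/- ovaries, 41.8, 32.3 and 18.1 CPM in ARE+/- ovaries and 9.82, 15.9 and 14.7 CPM in WT ovaries (1.55 ± 0.36). In these 2 genes ARE-/- replicate 6 stayed with its group, and the difference of Ces1f was 1.57 ± 0.42 without it.

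Scd1 and Fasn were highest in an ARE+/- ovary. Scd1 had 954, 1212 and 62.1 CPM in ARE-/- ovaries, 2643, 288 and 502 CPM in ARE+/- ovaries and 192, 254 and 93.9 CPM in WT ovaries, and Fasn had 1123, 1748 and 273 CPM in ARE-/- ovaries, 2663, 588 and 785 CPM in ARE+/- ovaries and 385, 405 and 350.3 CPM in WT ovaries. ARE+/- replicate 1 led both, ARE-/- replicates 2 and 3 came next, and ARE-/- replicate 6 was the lowest. Pck1 had 41.2, 57.3 and 0.0943 CPM in ARE-/- ovaries, 9.71, 0.614 and 20.0 CPM in ARE+/- ovaries and 8.73, 2.72 and 4.15 CPM in WT ovaries, with ARE-/- replicate 6, at 4 counts, and 1 ARE+/- ovary below all WT ovaries. Ucp1 had 0 to 6 counts in any ovary.

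Plin4 and Mrap ran against the rest of the genes in the ovary. Plin4 had 120.1, 133 and 457 CPM in ARE-/- ovaries, 575, 556 and 94.0 CPM in ARE+/- ovaries and 498, 331 and 226 CPM in WT ovaries. Mrap had 21.3, 20.6 and 49.4 CPM in ARE-/- ovaries, 53.7, 44.5 and 13.7 CPM in ARE+/- ovaries and 33.8, 56.4 and 31.6 CPM in WT ovaries. ARE-/- replicate 6, the lowest ovary for 18 of the 33 genes, was among the higher ones for these 2. Their fitted differences from WT were -0.56 ± 0.79 and -0.40 ± 0.56 in ARE-/-, and 0.22 ± 0.79 and -0.12 ± 0.56 in ARE+/-. Over the 9 ovaries the log2 CPM of Plin4 and Mrap correlated with the mean of the other genes at r = -0.428 and -0.421, against a median of 0.945 over the 32 genes. Over the 9 uteri the same values were 0.957 and 0.989, against a median of 0.974. These correlations run across libraries that share genotype and depth and are given as a description. The summed level of 10 steroidogenic genes (Star, Cyp11a1, Hsd3b1 and others), none of them at 0 counts in any ovary, was 4145, 4099 and 10787 CPM in ARE-/- ovaries, 8259, 13320 and 4948 CPM in ARE+/- ovaries and 13000, 15470 and 10067 CPM in WT ovaries. Its order resembled that of Plin4 and Mrap, with ARE-/- replicates 2 and 3 and ARE+/- replicate 4 at the low end of all 3. The list had 0 of 10 genes called in either direction in ARE-/- ovaries, with a median of -1.27, and its part in the levels of Plin4 and Mrap was not tested. Pparg, which granulosa cells also express, had 29.7, 27.5 and 37.0 CPM in ARE-/- ovaries, 39.6, 20.2 and 24.8 CPM in ARE+/- ovaries and 25.0, 21.1 and 28.0 CPM in WT ovaries and Cebpa had 148, 189 and 88.2 CPM in ARE-/- ovaries, 114, 93.6 and 137 CPM in ARE+/- ovaries and 121, 86.5 and 111 CPM in WT ovaries. Their genotype groups overlapped, and their differences from WT in ARE-/- ovaries were 0.36 ± 0.24 and 0.43 ± 0.27.

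**Figure D4:**
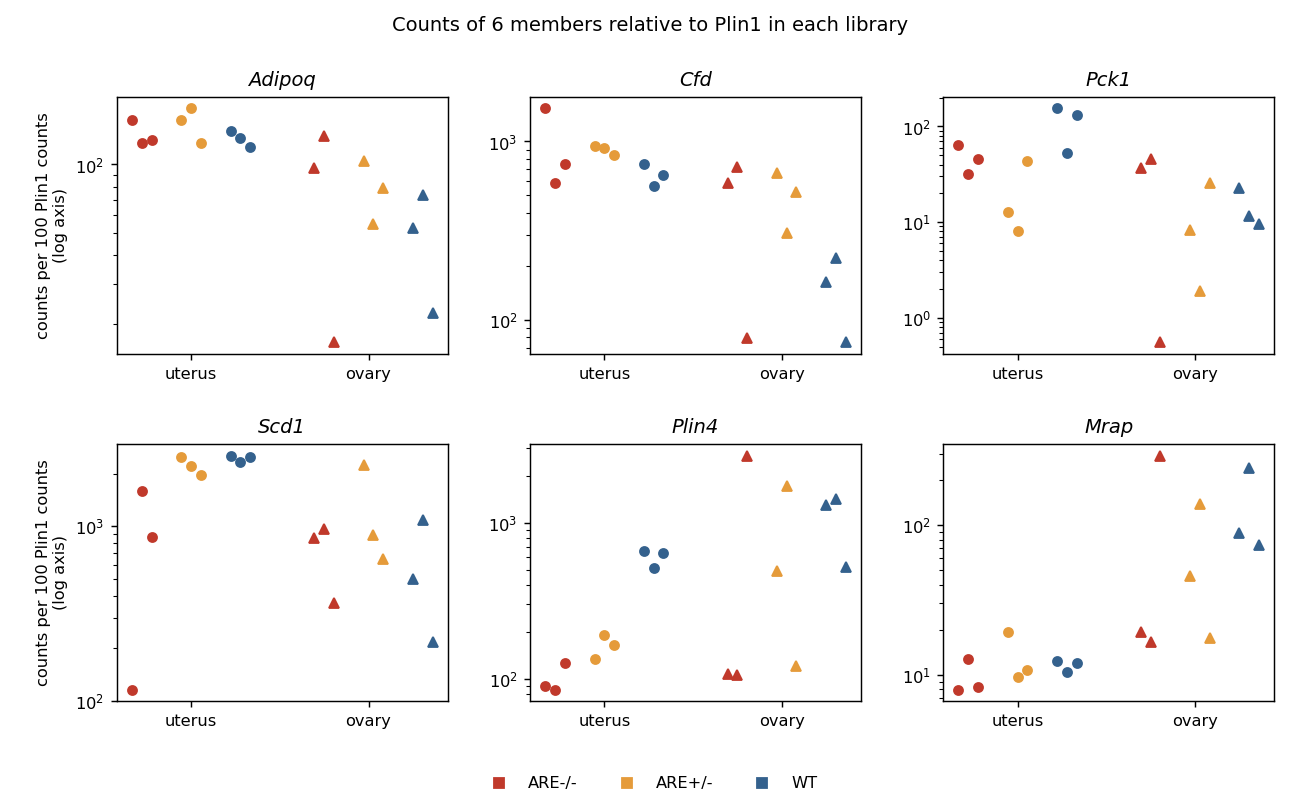
Counts of 6 genes per 100 counts of Plin1 in the same library, on a log axis, with 1 point per library, uterus as circles and ovary as triangles. Adipoq stays within 119 to 176 in all 9 uteri, while Scd1 is at 116 in uterus ARE-/- replicate 1 against 864 to 2540 in the other uteri, and Plin4 and Mrap are highest relative to Plin1 in ovary ARE-/- replicate 6.

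The mixture of transcripts relative to Plin1 also differed between libraries. In the uterus Adipoq kept close to Plin1. Its counts per 100 counts of Plin1 were 157, 124 and 128 in ARE-/- uteri, 156, 176 and 124 in ARE+/- uteri and 140.3, 130.1 and 119 in WT uteri. For Scd1 the same ratio was 116, 1591 and 864 in ARE-/- uteri, 2486, 2212 and 1969 in ARE+/- uteri and 2540, 2332 and 2494 in WT uteri, and for Cebpa 57.8, 107 and 180.2 in ARE-/- uteri, 262, 437 and 405 in ARE+/- uteri and 1293, 1040 and 1240 in WT uteri. For Scd1 ARE-/- replicate 1 stood below every other uterus by over 7 times, and for Cebpa the ratio was lowest in ARE-/- and highest in WT uteri. Cfd gave 1531, 582 and 750.0 in ARE-/- uteri, 940.4, 917 and 835 in ARE+/- uteri and 746, 562 and 651 in WT uteri. Pck1 gave 64.6, 31.9 and 45.5 in ARE-/- uteri, 12.7, 7.98 and 43.4 in ARE+/- uteri and 154, 53.3 and 133 in WT uteri, highest in WT replicates 1 and 3 and lowest in ARE+/- replicates 1 and 2. In the ovary even Adipoq varied, with 96.1, 134 and 16.6 in ARE-/- ovaries, 104, 55.1 and 78.9 in ARE+/- ovaries and 52.4, 73.6 and 22.5 in WT ovaries, and ARE-/- replicate 6 and WT replicate 3 were the lowest.

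In the ARE+/- ovary 0 of 32 genes were called by edgeR, against 1.35% of all genes called higher. At an unadjusted p under 0.05, 4 (12.5%) were higher and 0 lower, against 15.7% of all genes in either direction, so the share was near that of all genes. DESeq2 called 2, Ces1d and Ces1f, against 4.7% of all genes called higher. The median was 1.59, and for 14 genes every ARE+/- library lay above every WT library, against 14.4% of all genes. Without ARE+/- replicate 1 that median was 0.893. Ces1d was at 1.44 ± 0.37 (adjusted p = 0.11) and Ces1f at 1.19 ± 0.35 (adjusted p = 0.15). Cfd had 3.14 ± 1.37, Scd1 2.68 ± 1.24, Cidec 2.50 ± 1.45, Adipoq 2.10 ± 1.27, Dgat2 2.02 ± 0.92, Fasn 1.83 ± 0.78 and Plin1 1.12 ± 0.76 (adjusted p from 0.32 to 0.55). Against ARE+/-, ARE-/- ovaries gave 0 calls of 32 by edgeR, 0 at an unadjusted p under 0.05 and 0 by DESeq2, with a median of 0.17. Over all genes 0.0491% were called higher by edgeR, 8.39% had such a p in either direction and DESeq2 called 0.581% higher. Libraries of these 2 groups overlapped for all 32 genes, and the share of all genes that overlapped was not computed.

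The tissues were compared in WT animals. This contrast did not choose the genes, but it shares its WT libraries with those that did, so its values are a description. Mean levels were higher in WT ovaries than in WT uteri for 7 of 32 genes and lower for 0 by edgeR, with 13.3% of all genes called higher and 11.9% lower. At an unadjusted p under 0.05, 10 were higher and 1 lower, or 34.4% of the 32, which is near the 36.5% of all genes. DESeq2 called 9 higher and 1, Dgat2, lower, with 15.4% of all genes higher and 14.5% lower. The median log2 difference was 1.29, against -0.02 over all genes, and for 18 genes every ovary was above every uterus, which held for 24.2% of all genes.

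The 7 genes were a mixed group by role. Mrap had 33.8, 56.4 and 31.6 CPM in WT ovaries, against 0.397, 0.538 and 0.403 CPM in WT uteri, a difference of 6.49 ± 0.90 (adjusted p = 0.00013). Ces1f had 9.82, 15.9 and 14.7 CPM in WT ovaries, against 0.0567, 0.449 and 0.151 CPM in WT uteri (5.86 ± 0.95, adjusted p = 0.00042). Plin4 had 498, 331 and 226 CPM in WT ovaries, against 21.3, 26.2 and 21.6 CPM in WT uteri (3.93 ± 0.83, adjusted p = 0.0029). Ranges of the tissues were far apart in these 3 genes. Neither Ces1f nor Cidea, given next, exceeded 10 counts' worth of CPM in every WT uterus. Both passed the filter on low counts through higher groups, so their folds rest on few reads. Cidea had 2.58, 1.54 and 2.01 CPM in WT ovaries, against 0.113, 0.224 and 0.0503 CPM in WT uteri (3.93 ± 0.78, adjusted p = 0.0016), and Pparg had 25.0, 21.1 and 28.0 CPM in WT ovaries, against 3.06, 2.33 and 2.37 CPM in WT uteri (3.26 ± 0.51, adjusted p = 0.00027). Plin1 had 38.4, 23.4 and 43.1 CPM in WT ovaries, against 3.23, 5.14 and 3.37 CPM in WT uteri (3.15 ± 0.84, adjusted p = 0.012), and Cebpa had 121, 86.5 and 111 CPM in WT ovaries, against 41.8, 53.4 and 41.8 CPM in WT uteri (1.22 ± 0.35, adjusted p = 0.019). The call of Plin1 ended when the WT uterus numbered 1 was left out (edgeR adjusted p = 0.0557) or the one numbered 3 (0.0548). That of Cebpa ended without either of these (0.0688 and 0.0706) and without the WT ovary numbered 1 (0.0661) or 3 (0.0501).

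Other genes did not pass. Cidec was at 1.63 ± 1.19 (adjusted p = 0.36), Adipoq at 1.62 ± 1.08 (0.31) and Fabp4 at 1.53 ± 1.13 (0.36). The adipokines Cfd, Retn and Lep gave 0.97 ± 1.15, 1.11 ± 1.16 and 1.58 ± 1.09 (adjusted p from 0.32 to 0.60). Every ovary lay below every uterus for 3 genes, Dgat2 at -1.60 ± 0.64 (adjusted p = 0.084), Slc2a4 at -0.71 ± 0.53 (0.36) and Fasn at -0.28 ± 0.59 (0.79). The share of all genes in this order was not computed, so the 3 are only a description. Dgat2 passed the threshold when ovary ARE+/- replicate 1 (0.0394) or ovary ARE-/- replicate 6 (0.0305) was left out. Per transcript length Plin4 was the most abundant of the group in WT ovaries (113 ± 43.0 TPM) and Dgat2 in WT uteri (79.8 ± 9.44 TPM), followed by Cfd in WT ovaries (108 ± 32.8 TPM) and Fasn in WT uteri (75.4 ± 7.98 TPM; mean ± SD, n = 3 each). In the steroidogenic list 10 of 10 genes were called higher in WT ovaries, with summed levels of 10067 to 15470 CPM in WT ovaries and 115 to 127 CPM in WT uteri, and its part in the tissue difference of the 7 genes was not tested.

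**Figure D5:**
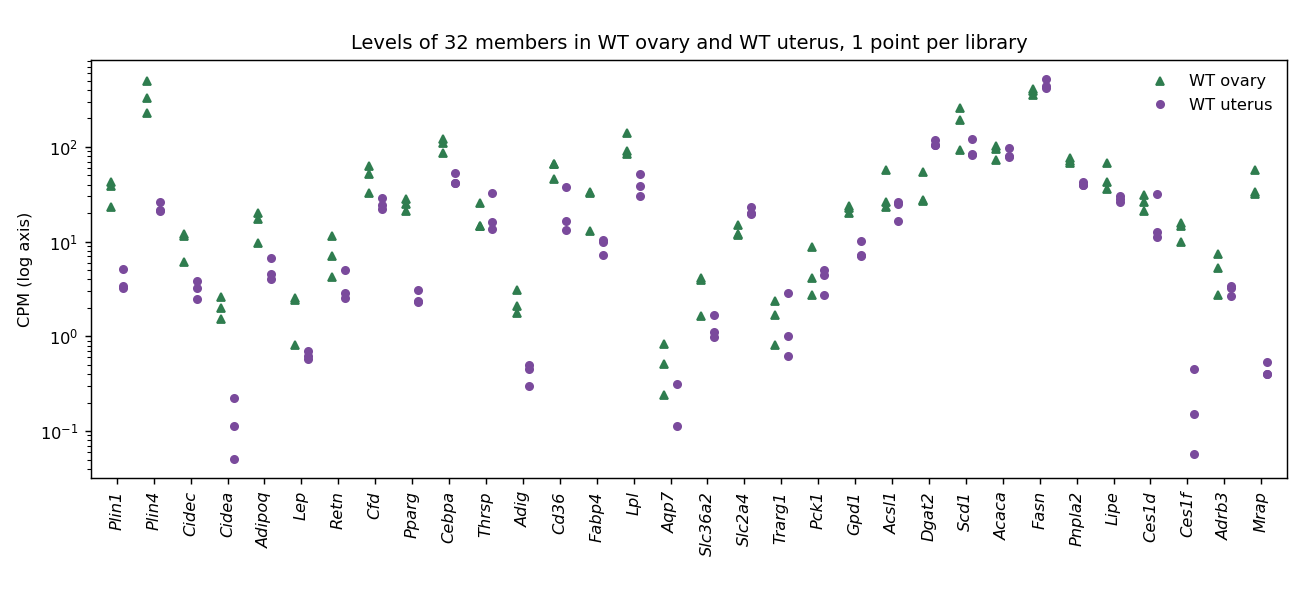
CPM on a log axis of the 32 tested genes in WT ovaries (triangles) and WT uteri (circles), with 1 point per library; Aqp7 in uterus WT replicate 3, at 0 counts, is not drawn. Mrap, Ces1f, Plin4, Cidea and Pparg are separated by wide gaps with the ovary above, and Dgat2, Slc2a4 and Fasn have the ovary below.

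The ARE-/- difference itself was smaller in the ovary than in the uterus for 31 of the 32 genes, with a median of -2.83 for the ovary value minus the uterus value. As it holds the contrasts that chose the genes, this too is a description. By edgeR 2 genes were called lower, Ces1f at -6.40 ± 1.17 and Mrap at -6.21 ± 1.09, against 0.109% of all genes. DESeq2 called 13 lower, against 1.96% of all genes. The count was 0 for 12 of the 18 libraries when each was left out, ovary ARE-/- replicate 6 among them, and at most 4, without uterus ARE-/- replicate 2. The exception in sign was Dgat2 at 0.53 ± 0.89, with Slc2a4 at -0.02 ± 0.74 and Thrsp at -0.20 ± 1.07.

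Of 41 other genes of lipid metabolism, 11 were called higher in ARE-/- uteri and 0 lower, with a median of 1.15. Over all genes 3.36% were called higher. The 5 highest were Car3, a carbonic anhydrase abundant in fat, at 6.28 ± 0.93 (adjusted p = 0.0083), Acvr1c, the receptor ALK7, at 5.34 ± 0.70 (0.0042), Pnpla3, a lipase relative, at 4.40 ± 0.55 (0.0030), Sncg, gamma-synuclein, at 3.96 ± 1.02 (0.070) and Slc7a10, an amino acid transporter, at 3.95 ± 0.93 (0.051). The last 2 were not called. Plin2, the perilipin that most cell types use, was called at a smaller 1.12 ± 0.15 (0.0046). The 5 lowest were Fabp5 at -1.12 ± 0.97, Cavin1 at -0.24 ± 0.27, Irs1 at -0.14 ± 0.30, Lpgat1 at -0.09 ± 0.16 and Gpam at -0.02 ± 0.23, of which none was called (adjusted p from 0.57 to 0.98). In ARE+/- uteri 0 of 41 and in ARE+/- ovaries 0 of 40 were called, with 1.08% and 1.35% of all genes called higher.

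In ARE-/- ovaries 4 of 40 were called higher and 3 lower, against 6.31% of all genes higher and 1014 of 24457 lower. The higher ones were Gpihbp1, which anchors lipoprotein lipase to capillaries, at 1.70 ± 0.36 (adjusted p = 0.018), Cebpd at 0.93 ± 0.22 (0.026), Plin2 at 0.72 ± 0.19 (0.039) and Plin3 at 0.38 ± 0.08 (0.020). The lower ones were Gpam, which starts triglyceride synthesis, at -0.74 ± 0.16 (0.021), Lpgat1 at -0.54 ± 0.10 (0.0088) and Insr, the insulin receptor, at -0.40 ± 0.11 (0.043). Highest but not called were Car3 at 2.85 ± 1.40, Pnpla3 at 2.75 ± 1.34, Rbp4 at 2.64 ± 1.03, Mogat1 at 2.48 ± 1.04 and Slc7a10 at 2.13 ± 0.73 (adjusted p from 0.11 to 0.25). Among the 5 lowest were also Acvr2b at -1.08 ± 0.32, Plin5 at -0.55 ± 1.03 and Me1 at -0.55 ± 0.41, not called (adjusted p from 0.062 to 0.79).

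Some genes outside the group traced it closely. Of 18464 others with a mean of at least 1 CPM in the uterus, those whose log2 CPM over the 9 uteri correlated best with the mean of the group were B3galt2 (r = 0.998), Car3, Acvr1c, Parp3, Acacb, Apod, Rbp4, Orm1, Trf and Gm16537 (r = 0.982). Of 18493 in the ovary they were Nat8l (r = 0.99), Rbp4, Igfals, Pnpla3, Orm1, Car3, Pdha1, Ltc4s, Gm16537 and Tmem179 (r = 0.971). Car3, Rbp4, Orm1 and Gm16537 were on both lists. Of the group itself 25 of 32 genes in the uterus and 23 of 32 in the ovary had an r over 0.9 with the mean of the others. The genes were chosen for higher levels in these same ARE-/- libraries, so a shared profile was partly fixed in advance. These correlations are a description.

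Markers of other cell types also differed between uteri. Of 7 red cell genes 5 of 6 tested were called higher in ARE-/- uteri, against 3.36% of all genes, with a median of 4.16, and the summed level was 7476, 1377 and 882 CPM in ARE-/- uteri, 235, 125 and 137 CPM in ARE+/- uteri and 223, 101 and 232 CPM in WT uteri. The highest library was the same as for Plin1, and hemoglobin copies share reads. Of 10 macrophage genes 5 were called, with a median of 1.57 and sums of 1203 to 2040 CPM in ARE-/- uteri, 999 to 1242 CPM in ARE+/- uteri and 611 to 656 CPM in WT uteri. Mesothelial genes gave 0 calls of 10 and sums of 551 to 1738 CPM in ARE-/- uteri, 606 to 811 CPM in ARE+/- uteri and 409 to 644 CPM in WT uteri. Smooth muscle genes also gave 0 of 10, with 21207, 5434 and 5776 CPM in ARE-/- uteri, 6258, 6626 and 5936 CPM in ARE+/- uteri and 10269, 10693 and 9851 CPM in WT uteri, and uterine stroma and epithelium genes 0 of 10, with 491, 1358 and 849.9 CPM in ARE-/- uteri, 1413, 1382 and 1085 CPM in ARE+/- uteri and 1417, 1568 and 1450 CPM in WT uteri. ARE-/- replicate 1 was the highest library for smooth muscle and the lowest for the uterine genes. It also held the highest summed levels of oocyte genes, 23.2 CPM against 1.18 to 2.89 CPM in the other uteri, and of steroidogenic genes, 414 CPM against 101 to 127 CPM. For granulosa genes, the other ovarian list, the highest library was a WT uterus. Their sums were 271 to 418 CPM in ARE-/- uteri, 225 to 296 CPM in ARE+/- uteri and 200 to 1142 CPM in WT uteri. None of the 10 was at 0 in every uterus, and 0 of 8 tested were called in ARE-/- uteri.

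Of 10 lymph node genes, none at 0 in every uterus, 2 were called higher in ARE-/- uteri (median 1.99) and 1 in ARE+/- uteri (median 1.61). Over all genes 3.36% were called higher in ARE-/- uteri and 1.08% in ARE+/- uteri. The lymph node sums were 171 to 273 CPM in ARE-/- uteri, 128 to 177 CPM in ARE+/- uteri and 135 to 176 CPM in WT uteri. Of 10 skeletal muscle genes, with Pvalb at 0 throughout, 0 of 7 tested were called (median 1.97), and the sums were 38.6 to 383 CPM in ARE-/- uteri, 34.3 to 95.1 CPM in ARE+/- uteri and 119 to 158 CPM in WT uteri. Adipose stroma genes gave 1277 to 1371 CPM in ARE-/- uteri, 1032 to 1348 CPM in ARE+/- uteri and 1171 to 1336 CPM in WT uteri, with 2 of 9 called higher in ARE-/-. Endothelial genes gave 559 to 712 CPM in ARE-/- uteri, 471 to 546 CPM in ARE+/- uteri and 629 to 846 CPM in WT uteri, with 0 of 10 called. Of brown fat genes other than Ucp1 and Cidea, 2 of 12 were called higher in ARE-/- uteri (median 0.62), against 3.36% of all genes. Their sums, in which Dio2 and Kcnk3 were the most abundant, were 129 to 571 CPM in ARE-/- uteri, 322 to 547 CPM in ARE+/- uteri and 109 to 824 CPM in WT uteri. The 33 genes together took 2.78%, 0.968% and 0.425% of scaled counts in ARE-/- uteri, 0.219% to 0.338% in ARE+/- uteri and 0.104% to 0.117% in WT uteri. Among 9 of the 10 red cell, macrophage, mesothelial, smooth muscle, uterine, stromal, endothelial, brown fat, oocyte and steroidogenic lists every gene had a count in some uterus, and in the oocyte list Figla had none. The part of these cell types in the levels of the 33 genes was not tested.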

How the data were processed

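The authors deposited whole-number counts per gene; per the file headers, featureCounts 2.0.4 ran with GENCODE M32, with multi-mapped and overlapping reads counted for each gene, mates counted singly and no strand option. STAR and the build mm10 are named in the submitters' processing notes. As M32 annotates a later build, no coordinates were taken from the files. Symbols were matched for 52029 of 57010 IDs and all 33 genes. Groups came from tissue and genotype labels. The test was the robust quasi-likelihood F-test of edgeR 4.0.16 (R 4.3.3), after filterByExpr and TMM, over the 9 libraries of a tissue, or all 18 for tissue differences, with Benjamini-Hochberg adjustment over all 24277 (uterus), 24457 (ovary) or 26682 (both) genes. The filter left 32 of the 33 genes, of which 29 in the uterus exceeded 10 counts' worth of CPM in every WT library and 3 (Cidea, Aqp7 and Ces1f) passed through higher groups. Correlations used log2 CPM with a prior count of 2. DESeq2 1.42.0 and other scalings, filters and left-out libraries were alternatives. Scripts were checked on simulated counts. Replicates are separate samples by label, so p-values measure the spread between libraries. Tests over all 18 libraries took uteri and ovaries as independent, and any pairing of a uterus and an ovary of the same animal was not modelled. Genes, gene lists and tests were chosen with earlier results of these data known. Text names all 33 genes by role, the 5 highest and lowest of the other lipid genes per tissue, those called among them, and the 10 most alike.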

Additional observations from a re-analysis of the deposited data

Results flagged for a closer look

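The difference between ARE-/- and WT was unlike in the 2 tissues for 2 genes by edgeR's test of the difference itself over all 18 libraries. Over all genes 0.109% were called lower. The count fell to 0 for 12 of the 18 libraries when each was left out. For Ces1f the ovary value minus the uterus value was -6.40 ± 1.17 on the log2 scale, with every ARE-/- library above every WT library in both tissues. Its WT uteri held only 0.0567 to 0.449 CPM, so the value of Ces1f rests on few reads. For Mrap it was -6.21 ± 1.09, with ARE-/- libraries above WT in the uterus and overlapping with WT in the ovary. Mrap was low in WT uteri as well, at 0.397 to 0.538 CPM. Both genes were chosen with the ARE-/- differences known, so these values are a description. DESeq2 called 13 of the 32 genes in this way, against 1.96% of all genes called lower.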

How the results depend on the processing

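Scaling by DESeq2 size factors or total counts and a stricter filter changed no count of calls by over 1.5 times. Without a low-count filter the ARE-/- calls were 19 in the uterus (30 as reported), 0 in the ovary (2) and 0 for the difference between tissues (2). Over all genes 794 of 38550 were then called higher in the uterus and 1424 of 39259 in the ovary. For the difference between tissues 30 of 42290 were called lower. With 2 genotypes only, the uterus gave 17 for ARE-/- and 19 for ARE+/- (0 as reported). Over all genes 365 of 23163 and 734 of 23108 were then called higher. DESeq2 called 13 for ARE+/- against WT and 19 for ARE-/- against ARE+/- in the uterus, 8 for ARE-/- and 2 for ARE+/- in the ovary, 1 lower in WT ovary and 13 lower for the difference between tissues. Over all genes it called 4.41% and 0.721% higher in those uterus comparisons. In the ovary it called 2347 of 24423 higher for ARE-/- and 4.7% for ARE+/-. It called 14.5% lower in WT ovary and 1.96% lower for the difference between tissues. Deviations of like-numbered libraries correlated at -0.0348 to 0.343 (uterus) and at -0.16 to 0.0137 (ovary). All 3 pairs of ARE-/- and ARE+/- uteri were over 0.1 (0.101 to 0.343), and there the replicate block gave 0 calls, as without it; no other comparison had every pair over 0.1. With the replicate block, ARE+/- uteri gave 3 calls, ARE-/- ovaries 7 higher and 1 lower, and in ARE+/- ovaries Pck1 turned to -0.869 and Mrap to 0.224. Over all genes the block gave 289 higher and 13 lower of 24277 in ARE+/- uteri. In ARE-/- ovaries it gave 1198 higher and 346 lower of 24457. The cause of these differences was not tested.

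Leaving out each library in turn gave 2 to 31 calls for ARE-/- and 0 to 18 for ARE+/- uteri, whose median ranged from 1.52 to 2.15. It gave 0 to 8 for ARE-/- ovaries, 0 to 1 lower calls for WT ovary and 0 to 4 for the difference between tissues. Over all genes 190 to 1044 were then called higher in ARE-/- uteri, 0 to 613 in ARE+/- uteri and 518 to 2031 in ARE-/- ovaries. In WT ovary 1999 to 4075 were called lower, and for the difference between tissues 3 to 187. The ovarian median against ARE+/- ranged from -0.228 to 0.653. Signs turned for Pck1 in ARE+/- uteri (-0.637 to 0.572) and, in ARE+/- ovaries, for Plin4 (-0.136 to 0.665), Mrap (-0.499 to 0.259) and Pck1 (-0.039 to 1.534).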
